A study of Mus musculus with 2 samples.

Results

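Heat shock and chaperone genes were read out in single cells of the mouse aortic arch, one by one and across cell types and 2 diets. The genes were taken by symbol, and all 10 were found among the 31053 genes counted: Hspa1a, Hspa1b, Hspa8, Dnajb1, Hsph1, Hsp90aa1 and Hspb1 of the cytosol, Hspa5 of the endoplasmic reticulum, and Hspd1 and Hspe1 of the mitochondrion. Both groups were male C57BL/6 mice lacking Apoe (Apoe-/-), the apolipoprotein whose loss raises plasma cholesterol, and both were 16 weeks old. The control (ND) group ate chow. The HFD group ate a Western diet with lard, sucrose, cholesterol and sodium cholate from weaning onwards. Cells of 2 aortas were pooled into 1 library per diet, so the diets were compared without a replicate, no test was possible, and diet, library and preparation cannot be told apart. All intervals below are 95% intervals of counting error only.

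Chaperones bind unfolded proteins and help them fold, refold or reach the degradation machinery. On heat or other protein damage, heat shock factor 1 (HSF1) trimerises, binds the heat shock elements of its target promoters and turns on the inducible genes, while the endoplasmic reticulum and the mitochondrion each have a stress response of their own. In endothelium these genes are known to respond to flow, oxidised lipids and temperature, and enzymatic dissociation of a tissue is known to induce them as well. Both aortas of each group were digested at 37 degrees C for 40 minutes.

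Promoter sequences were taken from RefSeq windows on GRCm38.p6, which were found for 8 of the 10 genes and not for Hsp90aa1 and Hspa8. They are shown because they separate the genes by the element they carry. Each line gives the 120 bases that end just before the annotated start, on the gene's own strand, and capitals mark the bases of a heat shock element or, in Hspa5, of the endoplasmic reticulum stress element.
Hspa1a, chr17:34972157-34972276, minus strand: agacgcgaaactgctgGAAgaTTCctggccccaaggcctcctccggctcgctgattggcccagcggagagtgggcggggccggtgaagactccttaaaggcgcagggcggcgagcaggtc
Hspa1b, chr17:34959239-34959358, minus strand: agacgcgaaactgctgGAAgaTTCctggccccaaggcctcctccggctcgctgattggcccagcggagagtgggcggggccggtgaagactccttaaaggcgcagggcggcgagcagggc
Hsph1, chr5:149636337-149636456, minus strand: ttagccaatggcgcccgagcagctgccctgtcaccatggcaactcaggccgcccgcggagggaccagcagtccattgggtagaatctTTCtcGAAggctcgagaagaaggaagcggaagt
Hspb1, chr5:135887799-135887918, plus strand: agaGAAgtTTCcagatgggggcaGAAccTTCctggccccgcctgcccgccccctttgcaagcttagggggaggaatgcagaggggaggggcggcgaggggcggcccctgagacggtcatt
Hspe1, chr1:55088028-55088147, plus strand: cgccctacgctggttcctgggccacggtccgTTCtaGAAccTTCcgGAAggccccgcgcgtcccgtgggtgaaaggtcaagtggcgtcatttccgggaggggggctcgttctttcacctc
Hspa5, chr2:34771970-34772089, plus strand: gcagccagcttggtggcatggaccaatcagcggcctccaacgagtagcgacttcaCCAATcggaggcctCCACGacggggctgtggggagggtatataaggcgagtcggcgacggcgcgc

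A heat shock element is built from inverted GAA units, and a pair of them was searched as GAANNTTC or TTCNNGAA over the whole 300-base window (both read the same on either strand, and the letters of neighbouring pairs may overlap). A pair was present in 5 of the 8 windows, those of Hspa1a, Hspa1b, Hsph1, Hspb1 and Hspe1, against 15.1% of all 32851 RefSeq windows. The first 30 transcribed bases of the Dnajb1 window were not found in the early part of a GENCODE transcript, so its place is in doubt. Those of the other 7 were found there, though not necessarily at the transcript's start. The triple GAANNTTCNNGAA (searched on both strands) was present in Hspe1 and in Hsph1, where it lay after the start, against 0.603% of all windows. Hspa5 alone of the 8 held the endoplasmic reticulum stress element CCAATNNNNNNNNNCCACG, which 0.119% of all windows held. A match is a description of the letters and not a measured binding site.

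Hspa1a and Hspa1b, the stress-induced HSP70 genes, lie head to tail on chromosome 17 (34969190 to 34972156 and 34956436 to 34959238, minus strand), and their promoter windows had the same base at 296 of 300 positions. Stretches of 90 bases were shared by both over 49.3% of the Hspa1a transcript and 52.3% of the Hspa1b transcript. No 90-base stretch of the last 500 bases, where a 3′ library counts, was shared, and shorter stretches were not compared. How reads shared by both genes were assigned is not stated. Hspd1 (HSP60) and its co-chaperonin Hspe1 (HSP10) share a divergent start region on chromosome 1, with their annotated starts 111 bases apart on opposite strands, and the Hspe1 stretch above lies inside the annotated Hspd1 gene. GENCODE also starts its model of Hspe1 at 55088132, before the end of that stretch. It likewise starts its gene models of Hspa5 (chromosome 2, 34771970 to 34777547, plus strand) and Hsph1 (chromosome 5, 149614287 to 149636376, minus strand) ahead of the RefSeq start, so all 3 stretches overlap the models.

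After the study's limits (200 genes and 200 UMIs or more, and a mitochondrial share up to 30%) 5416 ND and 2739 HFD cells were kept, with medians of 3732.5 and 5336 UMIs. A UMI is a molecular tag that counts 1 captured transcript. The libraries stood apart in quality: the median mitochondrial share was 16.8% in ND and 21.9% in HFD, and the mitochondrial limit left out 4668 ND and 11364 HFD barcodes. A total of 39 barcode sequences occurred in both libraries, of which 1 was kept in both and none was gated in both. Each cell was gated to a cell type by its own marker UMIs, with at least 3 distinct markers and a lead of 2 over every other type. Markers not used to gate were higher inside their gate than outside in 68 of 68 checks. The gates held 2502 ND and 1325 HFD endothelial cells, 999 and 434 fibroblasts, 356 and 496 macrophages, and 277 and 34 T cells, and 464 ND and 346 HFD cells stayed ungated. Apoe was counted in both libraries (1257 UMIs in ND and 844 in HFD), and a 3′ count says nothing of its deletion.

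The inducible HSP70 genes were counted at their highest levels in ND endothelial cells. Hspa1a stood at 505 CPM (UMIs of the gene in every 1000000 UMIs of the gate) in the ND endothelial gate and at 371 CPM in HFD, against 119 and 90.8 CPM in fibroblasts and 229 and 113 CPM in macrophages. Hspa1b was at 529 and 320 CPM in endothelial cells, 176 and 112 CPM in fibroblasts and 157 and 75.1 CPM in macrophages. In ND T cells and neutrophils the pair was nearly uncounted: 277 T cells held 10 UMIs of Hspa1a and 12 of Hspa1b, and the neutrophil gate held 1 UMI of either gene, 5.53 CPM with an interval of 0.14 to 30.8 CPM. Some other gates had intervals that reached the HFD endothelial levels. Hspa1a was at 272 CPM (196 to 368) in HFD dendritic cells and 262 CPM (185 to 362) in ND mural cells. Hspa1b was at 354 CPM (263 to 467) in ND mural cells. Of the 22 HFD dendritic cells, 2 held 85.7% of the Hspa1a UMIs and 1 cell held 31 UMIs. A counting interval does not cover such a spread between cells. Of the 16 neighbouring steps in the order of all 17 gates and libraries, 14 had overlapping intervals for each of the 2 genes. Overlap of 2 intervals does not show that the levels are equal, and the order of such neighbours was not settled.

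**Figure D1:**
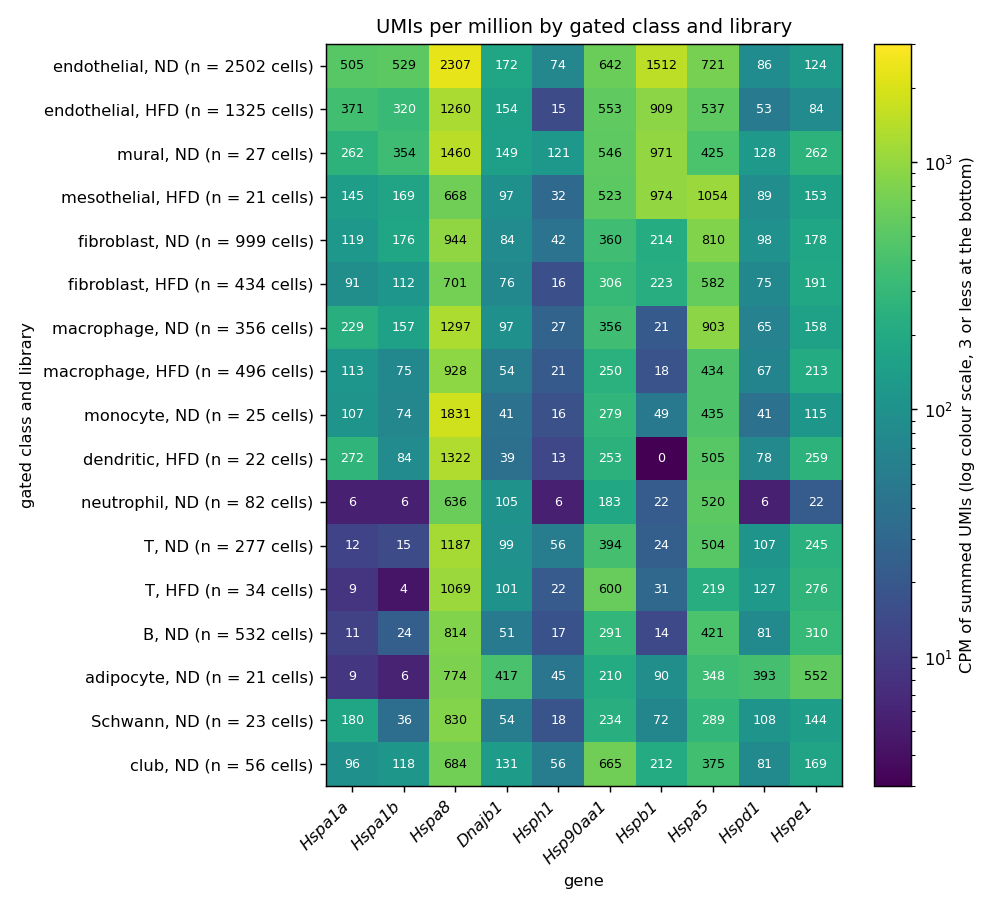
CPM of summed UMIs of the 10 genes (columns) in each gate and library with at least 20 cells (rows, cell numbers in brackets), with colour on a log scale. Hspa1a and Hspa1b reach 505 and 529 CPM in ND endothelial cells and lie under 25 CPM in T cells, B cells, neutrophils and adipocytes, while Hspd1 and Hspe1 reach their highest levels, 393 and 552 CPM, in adipocytes.

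Hspb1 (HSP27), a small heat shock protein that caps actin filaments and holds unfolded clients, was counted in ND at 1512 CPM in endothelial and 971 CPM in mural cells, and at 13.6 CPM in B cells and 21.2 CPM in macrophages. In HFD it was counted at 909 CPM in endothelial cells and 974 CPM in mesothelial cells, with intervals that overlap, and at 0 UMIs in the 22 dendritic cells. Hspa8 (HSC70), the constitutive cytosolic HSP70, was counted in every gate, from 636 CPM in ND neutrophils to 2307 CPM in ND endothelial cells. Hsp90aa1, the stress-responsive cytosolic HSP90, ran from 183 CPM in ND neutrophils to 665 CPM in the club cell gate, with the endothelial 642 CPM inside the interval of the latter, and all 16 of its neighbouring steps overlapped.

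Hspa5 (BiP), the HSP70 of the endoplasmic reticulum, did not share the endothelial lead. It was at 903 CPM in macrophages, 810 CPM in fibroblasts and 721 CPM in endothelial cells of the ND library, and at 1054 CPM in the 21 HFD mesothelial cells. The mitochondrial pair Hspd1 and Hspe1 went together from gate to gate. Both were highest in the 21 ND adipocytes (393 and 552 CPM). They were lowest in ND neutrophils, at 5.53 CPM (0.14 to 30.8) for Hspd1 and 22.1 CPM (6.03 to 56.7) for Hspe1. In HFD both were lowest in endothelial cells (52.6 and 84.5 CPM). Dnajb1 (HSP40), the J-domain partner that loads clients onto HSP70, was also highest in adipocytes at 417 CPM, against 172 CPM in endothelial cells. Of the 21 adipocytes, 2 held 37.4% of the Dnajb1 UMIs, and the top 10% of ND endothelial cells held 46.9%. Hsph1 (HSP110), the nucleotide exchange factor of HSP70, was at 121 CPM in the 27 ND mural cells (70.2 to 193) and at 73.8 CPM (69.2 to 78.7) in endothelial cells, intervals that overlap, as did all 16 neighbouring steps in its order.

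Set against fibroblasts of the same library, 5 of the 10 genes were at least 2-fold higher in ND endothelial cells, where 17.6% of 14161 genes were that much higher. They were Hspb1 (7.05-fold), Hspa1a (4.23-fold), Hspa1b (3.01-fold), Hspa8 (2.44-fold) and Dnajb1 (2.05-fold). Against macrophages 4 were at least 2-fold higher in ND (23.8% of all genes) and against T cells 3 (22.4%), and none was 2-fold lower in any of these 3 ND comparisons (19.6%, 14.6% and 15.4% of all genes). Hspb1 was 71.2-fold higher in endothelial cells than in macrophages in ND and 51.8-fold higher in HFD. In HFD the genes at least 2-fold higher in endothelial cells numbered 4 against fibroblasts (18.1% of all genes), 5 against macrophages (26.2%) and 4 against T cells (16.6%), and those 2-fold lower 1, 1 and 2 (19.7%, 16.3% and 21.9%). Hspe1 was the gene 2-fold lower against both fibroblasts and macrophages, with 84.5 CPM against 191 and 213 CPM.

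Across the 17 points of gate and library, the level of Hspa1a followed that of Hspa1b (Pearson r = 0.91 of log2(CPM + 10)), and Hspd1 followed Hspe1 (r = 0.90), whereas Hspa1a and Hspd1 were unrelated (r = -0.03). These r describe points that share libraries, depth and gates, and 11 of the 17 are from ND. Among 10397 genes, those most like Hspa1a were Wdr13 (r = 0.87), Mvp (0.86), Klf4 (0.85), Cdc42bpb (0.84) and Arf2 (0.83). Those most like Hspa5 were Lxn (0.82), Ptgs1 (0.81), Psd3 (0.81), Cacul1 (0.80) and Zfyve16 (0.79). Those most like Hspd1 were Mrps24 (0.93), Ndufab1 (0.92), Atp5o (0.92), Pdhb (0.91) and 2410015M20Rik (0.91), of which Ndufab1, Atp5o and Pdhb encode parts of mitochondrial respiration and pyruvate oxidation.

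Between the diets, all 10 genes were lower in the HFD than in the ND endothelial gate, each with an interval below equality. The median log2 ratio of HFD over ND was -0.63 for the 10 genes and -0.17 for the 13933 genes with at least 10 UMIs, and 9 of the 10 lay below that median of all genes. A lower HFD value was common to most genes, since 66.9% of them were lower and 31.8% had an interval below equality. The corresponding all-gene medians were -0.17 in fibroblasts, -0.13 in macrophages and 0.04 in T cells, and the ratios below are to be read against them.

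Hsph1 stood out among the 10 in the endothelial gate. It was counted with 955 UMIs at 73.8 CPM in ND and with 123 UMIs at 14.6 CPM in HFD, a log2 ratio of -2.34 (-2.62 to -2.07), or 5.07-fold lower in HFD. It was the only one of the 10 at least 2-fold lower there, where 9.76% of all genes were, and none was 2-fold higher (3.08% of all genes). Only 1.69% of genes had a smaller ratio. Hsph1 was also 2-fold lower in HFD fibroblasts, at 41.6 CPM against 16.4 CPM (log2 ratio -1.34, -1.92 to -0.80), and in T cells, at 56.1 CPM against 21.9 CPM, there on 5 HFD UMIs. In macrophages the libraries were close for Hsph1, at 27.4 and 21.0 CPM (log2 ratio -0.38, -0.92 to 0.17).

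Of the HSP70 genes in endothelial cells, Hspa8 went from 2307 CPM in ND to 1260 CPM in HFD (log2 ratio -0.87, -0.90 to -0.84). Hspa1b went from 529 to 320 CPM (-0.72, -0.79 to -0.66) and Hspa1a from 505 to 371 CPM (-0.45, -0.51 to -0.39). Hspb1 went from 1512 to 909 CPM (-0.73, -0.77 to -0.69). The partners of HSP70 did not move as one: the exchange factor Hsph1 had the lowest ratio of the 10 and the J-protein Dnajb1 the highest, at 172 CPM in ND and 154 CPM in HFD (-0.16, -0.26 to -0.06). Hsp90aa1 was close to Dnajb1, at 642 and 553 CPM (-0.22, -0.27 to -0.16), and both were near the all-gene median of -0.17. Hspa5 of the endoplasmic reticulum went from 721 to 537 CPM (-0.42, -0.48 to -0.37). The mitochondrial pair went from 85.5 to 52.6 CPM for Hspd1 (-0.70, -0.86 to -0.54) and from 124 to 84.5 CPM for Hspe1 (-0.56, -0.69 to -0.43), whose ratio was 0.21 in the 432 ND and 55 HFD cells with at most 10% mitochondrial UMIs.

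**Figure D2:**
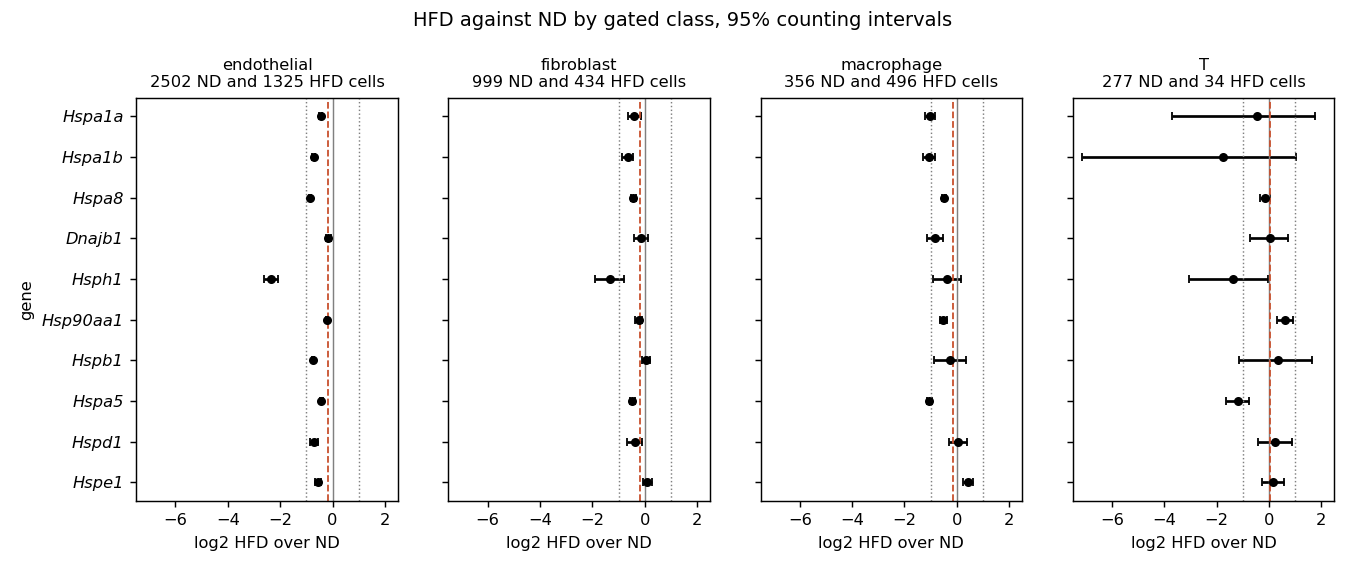
log2 ratio of HFD over ND CPM of each gene in 4 gates, with bars for the 95% counting interval, a dashed line at the median of all genes and dotted lines at a 2-fold change. In the endothelial gate all 10 points lie left of 0 and Hsph1 lies at -2.34, and in macrophages Hspe1 lies right of 0 at 0.43.

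In fibroblasts 8 of the 10 genes were lower in HFD, 7 with an interval below equality, where 66.5% of 12179 genes were lower and 20% had such an interval. Hsph1 alone was at least 2-fold lower there (9.98% of all genes, with 2.82% 2-fold higher). Hspa5 was at 810 CPM in ND and 582 CPM in HFD (log2 ratio -0.48), Hspa8 at 944 and 701 CPM (-0.43) and Hspa1b at 176 and 112 CPM (-0.65). Hspb1 and Hspe1, both lower in HFD endothelial cells, were level in fibroblasts, at 214 and 223 CPM (0.05, -0.11 to 0.22) and at 178 and 191 CPM (0.10, -0.08 to 0.28). The fibroblast gates had median mitochondrial shares of 13.9% in ND and 22.2% in HFD. Scaled to non-mitochondrial UMIs, Hspb1 had ratios of 0.27 at 10% to 20%, 0.59 at 20% to 30% and 0.03 above 30%. Hspe1 had 0.38, 0.88 and -0.54 in the same ranges. The part of quality in these values was not tested.

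In macrophages 3 genes were at least 2-fold lower in HFD, where 9.7% of all genes were 2-fold lower and 5.39% 2-fold higher. Hspa1a was at 229 CPM in ND and 113 CPM in HFD (log2 ratio -1.02, -1.23 to -0.82), Hspa1b at 157 and 75.1 CPM (-1.06, -1.31 to -0.82), and Hspa5 at 903 and 434 CPM (-1.06, -1.16 to -0.95). Hspe1 went the other way, from 158 to 213 CPM (0.43, 0.23 to 0.63), while its partner Hspd1 was level at 64.8 and 66.9 CPM (0.05, -0.28 to 0.38). These 3 calls sit near the 2-fold line and none of them was made with median-of-ratios scaling, with the mean of per-cell CPM, without the 6% of cells with the most UMIs, or in cells of 2000 to 8000 UMIs.

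The makeup of the macrophage gate differed between the diets and was followed in sub-gates. A resident sub-gate (Lyve1, Folr2 and Cd163) held 195 ND and 172 HFD cells, and a foam sub-gate (Trem2, Gpnmb and Spp1, genes of lipid-laden macrophages) held 10 ND and 171 HFD cells. Within HFD, Hspa1a was at 215 CPM in resident and 29.1 CPM in foam macrophages, 7.40-fold apart, and Hspa1b at 157 and 13.7 CPM, 11.5-fold apart. Hspe1 was higher on the foam side, at 294 CPM against 122 CPM. Hspa5 was at 591 CPM in resident and 339 CPM in foam macrophages. Of the 10 genes 4 were at least 2-fold higher in resident than in foam cells (15.6% of all genes) and 2, Hspe1 and Hsph1, at least 2-fold lower (10.8%). The HFD resident cells had a median mitochondrial share of 22.3% and a median of 5438 UMIs, and the foam cells 15.8% and 8514 UMIs, and the part of this in the values was not tested. Within the resident sub-gate alone the diets differed less for Hspa1a, at 287 CPM in ND and 215 CPM in HFD (log2 ratio -0.41, -0.68 to -0.15). The same held for Hspa5 at 962 and 591 CPM (-0.70, -0.86 to -0.55), and Hspe1 was level at 123 and 122 CPM. Hsph1 (-1.16, -2.40 to -0.02), Hspd1 (-0.37, -0.94 to 0.18) and Hspb1 (0.65, -0.28 to 1.62) were farther from equality than in the whole gate (-0.38, 0.05 and -0.27). Only 1 gene, Hsph1 on 22 and 10 UMIs, was 2-fold lower (9.1% of all genes, with 3.65% 2-fold higher).

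T cells could be compared only on 34 HFD cells. Hspa5 was at 504 CPM in ND and 219 CPM in HFD (log2 ratio -1.20, -1.66 to -0.78) and Hsp90aa1 at 394 and 600 CPM (0.61, 0.31 to 0.90). Without a mitochondrial limit the ratio of Hsp90aa1 was -0.33, on 387 and 415 cells and per all UMIs, mitochondrial ones included. In all HFD barcodes left out by the limit, Hsp90aa1 was at 494 CPM without mitochondrial UMIs and at 216 CPM with them. The part of this scaling in the ratio was not tested. Hspa8 was level at 1187 and 1069 CPM (-0.15, -0.36 to 0.05). The genes called 2-fold lower were Hspa5, Hsph1 and Hspa1b, against 14.4% of all genes (14.3% were 2-fold higher), and the last rests on 12 UMIs in ND and 1 in HFD. The difference of Hspa1b was not detectable at this depth.

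The levels and the diet ratio were also read in sub-gates within the endothelium. The check with markers not used to gate did not cover these sub-gates, so their names stand for the marker lists only. Of the endothelial cells, 249 ND and 107 HFD cells met a luminal sub-gate (Vwf, Vcam1 and Cytl1) and 2073 ND and 1116 HFD cells a capillary one (Gpihbp1, Cd36 and Rgcc). The sub-gates differed in quality, with median mitochondrial shares of 11.3% in ND and 16.9% in HFD in luminal cells and of 18.3% and 22.8% in capillary cells, and median depths of 6380 and 7201 UMIs and of 3344 and 5264.5 UMIs. The part of quality in the values of the sub-gates was not tested. In ND, 7 of the 10 genes were at least 2-fold higher in capillary than in luminal cells (13.2% of all genes) and none was 2-fold lower (20.5%). Hspb1 was at 1820 CPM in capillary and 315 CPM in luminal cells, Hspa1b at 627 and 141 CPM, Hspa8 at 2692 and 808 CPM and Dnajb1 at 203 and 45.3 CPM. In HFD the count was 5 (11.3% of all genes), with Hspe1 at least 2-fold lower in capillary cells (22.6%).

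In capillary cells all 10 genes were lower in HFD, where 65.5% of 13137 genes were lower. The 2 genes at least 2-fold lower were Hsph1 at 84.1 CPM in ND and 14.2 CPM in HFD (log2 ratio -2.56, -2.89 to -2.25) and Hspa8 at 2692 and 1342 CPM, 2.01-fold lower (1.96 to 2.06), and 9.98% of all genes were that much lower, with 4.1% 2-fold higher. In luminal cells 7 of the 10 genes were lower in HFD (54.3% of 10897 genes), 4 with an interval below equality (11.3%). These 4 were Hsph1, Hsp90aa1 (log2 ratio -0.50), Hspa5 (-0.40) and Hspa8 (-0.28). The other 3 genes were higher in HFD with an interval above equality, as were 8.61% of all genes. Hspa1a was at 162 CPM in ND and 196 CPM in HFD (0.27, 0.00 to 0.53), Hspa1b at 141 and 195 CPM (0.47, 0.19 to 0.74) and Hspb1 at 315 and 424 CPM (0.43, 0.25 to 0.61). The same 3 genes had log2 ratios of -0.57, -0.90 and -0.88 in capillary cells. Hsph1 was lower in the luminal cells too, at 39.5 and 16.0 CPM (-1.31, -2.21 to -0.50), on 81 and 15 UMIs, and was the only gene of the 10 at least 2-fold lower there (8.26% of all genes, with 4.56% 2-fold higher).

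**Figure D3:**
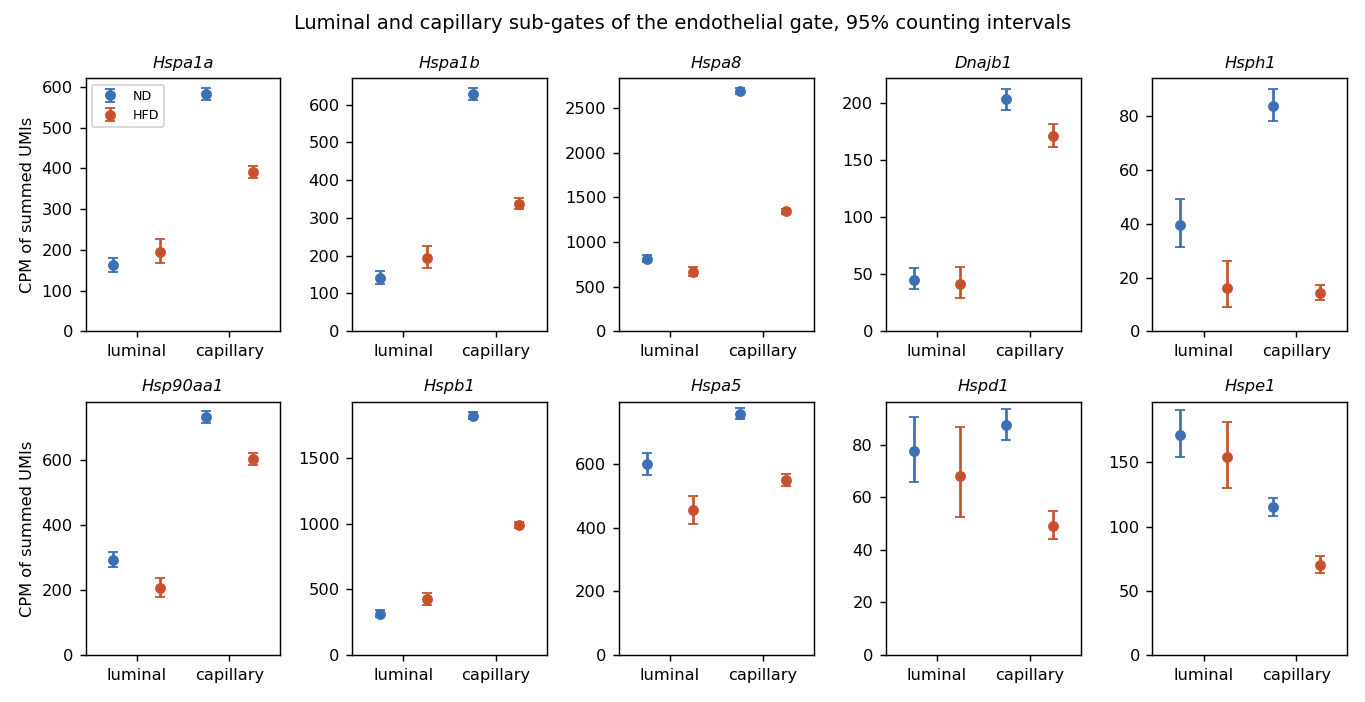
CPM of the 10 genes in luminal (249 ND and 107 HFD cells) and capillary (2073 and 1116 cells) endothelial cells, ND in blue and HFD in orange, with 95% counting intervals. In capillary cells each HFD point lies below its ND point, and in luminal cells the HFD points of Hspa1a, Hspa1b and Hspb1 lie above, at 196, 195 and 424 CPM.

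The share of endothelial cells with a UMI was compared after each cell had been thinned to 1000 UMIs, which left out 9 ND cells and no HFD cell. Hspa8 was then found in 84.4% of ND and 64.3% of HFD endothelial cells, Hspb1 in 70.9% and 54.4%, Hspa1a in 34.1% and 26.0%, Hspa1b in 35.0% and 22.9%, and Hsph1 in 6.42% and 1.13%. Without thinning the shares were 98.3% and 97.1%, 92.8% and 93.2%, 64.2% and 61.5%, 65.0% and 57.3%, and 26.0% and 7.85%, at the unequal depths. ND B cells, a type with little of these transcripts, gave 1.32% for Hspa1a, 1.32% for Hspb1 and 2.63% for Hsph1 after thinning, and the HFD endothelial share of Hsph1 was below the last value. The median depths were 3699.5 UMIs in ND and 5431 UMIs in HFD endothelial cells and 3494.5 UMIs in ND B cells. The 10% of ND endothelial cells with the most Hspa1a UMIs (250 cells) held 44.3% of its UMIs, and in HFD (132 cells) 46.4%. From cell to cell, Hspa1a and Hspa1b were related with Spearman's rho of 0.32 in ND and 0.29 in HFD after thinning, and no other pair of the 10 exceeded 0.23, which is weak in counts this sparse.

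The other chaperone genes, 60 with counts out of 61 listed, were read in the same endothelial gate to see how far the difference reached. Of these, 4 were at least 2-fold lower in HFD and none higher (9.76% and 3.08% of all genes), and their median log2 ratio of -0.18 was that of all genes (-0.17). The list was not uniform. The 12 genes of heat shock factors and HSF1-induced chaperones had a median of -0.85, with 9 intervals below equality and none above. Among them were Stip1 (HOP), which bridges HSP70 and HSP90, at 93.0 CPM in ND and 32.0 CPM in HFD (log2 ratio -1.54, -1.74 to -1.35), Fkbp4, an HSP90 co-chaperone of steroid receptors, at 72.4 and 33.9 CPM (-1.10), and Hspa4l, an HSP110 relative of Hsph1, at 20.5 and 9.24 CPM (-1.15). Hsf1 itself was at 27.9 and 24.3 CPM (-0.20, -0.45 to 0.05).

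The medians of the remaining groups lay near the median of all genes. The 18 genes of endoplasmic reticulum chaperones and the unfolded protein response had a median of -0.16, with none 2-fold changed. Of these, 12 had an interval below equality and 2 above. The 7 subunits of the TRiC chaperonin that were counted had a median of -0.27, the 11 constitutive cytosolic chaperones -0.19 and the 7 mitochondrial chaperones and proteases -0.03. In these groups 4, 5 and 0 genes had an interval below equality and 0, 1 and 1 above. The 5 small heat shock proteins had a median of -0.27, and the fourth gene called 2-fold lower, Hspb2, rested on 10 and 2 UMIs. The HSF1 group had medians of -0.34 in fibroblasts, -0.61 in macrophages and -0.16 in T cells. In capillary cells its median was -0.81, with 6 genes at least 2-fold lower (9.98% of all genes) and none higher. In luminal cells its median was -0.35, with none 2-fold lower and 2 at least 2-fold higher (4.56% of all genes). These were Serpinh1 and Hsf2, the latter on 14 and 13 UMIs. In the promoter windows, a heat shock element pair was present in 4 of 11 genes of the HSF1 group, 0 of 16 of the endoplasmic reticulum group, 2 of 7 TRiC subunits, 2 of 9 constitutive cytosolic chaperones, 1 of 6 mitochondrial and 1 of 3 small heat shock protein genes, against 15.1% of all windows.

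**Figure D4:**
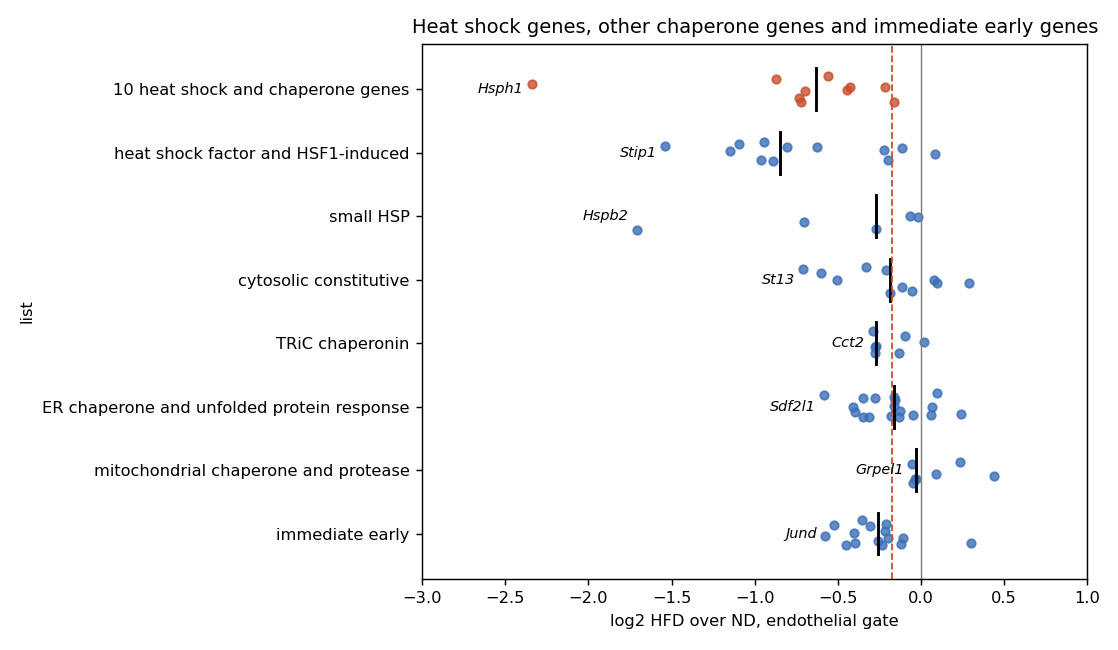
log2 ratio of HFD over ND in the endothelial gate for the 10 genes (orange) and for other chaperone and immediate early genes (blue, 1 point per gene with at least 10 UMIs), with a black bar at each list's median, a dashed line at the median of all genes and the name of the lowest gene. The HSF1-induced group lies lowest, with a median of -0.85 and Stip1 at -1.54, and the mitochondrial group lies at -0.03.

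Immediate early genes, which tissue dissociation also induces, were read beside the heat shock genes. In the endothelial gate 14 of 15 were lower in HFD (66.9% of all genes), with a median log2 ratio of -0.26, and together they made up 15315 CPM in ND and 12569 CPM in HFD. In macrophages 15 of 15 were lower (59.4% of all genes), with a median of -0.84, and their sum was 17305 and 10105 CPM. Within the resident sub-gate 14 of 15 were lower (61.1% of all genes), with a median of -0.35 and sums of 19113 and 15085 CPM. The HFD foam sub-gate had a sum of 6316 CPM. In luminal cells 14 of 15 were lower (54.3% of all genes) with a median of -0.57. Of the 10 heat shock and chaperone genes 7 were lower there and 3, Hspa1a, Hspa1b and Hspb1, were higher. Their median was -0.17, against -0.06 for all genes. In T cells 13 of 15 were lower (48.4% of all genes) with a median of -0.82, while 5 of the 10 heat shock and chaperone genes were lower and 5 higher, with a median of -0.06. The part of dissociation in the heat shock values was not tested. The cold-inducible genes Cirbp and Rbm3, chosen after their values were seen, were higher in HFD endothelial cells, at 74.5 and 106 CPM and at 236 and 351 CPM. Rbm3 was higher in HFD fibroblasts (177 and 224 CPM), macrophages (193 and 293 CPM) and T cells (443 and 876 CPM) too. Cirbp was close in fibroblasts (80.7 and 87.9 CPM), macrophages (50.8 and 50.2 CPM) and T cells (140 and 145 CPM). Genes of the circadian clock, also named after their values were seen, differed between the libraries too. In fibroblasts Dbp was at 4.67 and 38.6 CPM and Nr1d1 at 7.13 and 60.8 CPM. Per1 (87.8 and 70.5 CPM), Per2 (18.7 and 6.28 CPM) and Arntl were lower in HFD there. In luminal cells Dbp was at 5.36 and 64.9 CPM and Arntl at 31.2 and 8.51 CPM. Dbp was close in macrophages (6.70 and 7.65 CPM). The parts of temperature and time of collection in the diet ratios were not tested.

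Cell quality was followed by splitting the barcodes of a gate by mitochondrial share and scaling to the non-mitochondrial UMIs. In the endothelial gate 9, 10, 10 and 10 of the 10 genes were lower in HFD in the ranges of 0% to 10%, 10% to 20%, 20% to 30% and above 30%, against 48%, 54.3%, 55.5% and 51.1% of all genes with at least 10 UMIs. Hsph1 was at 67.9, 93.6, 106 and 91.6 CPM over the 4 ranges in ND and at 19.6, 17.8, 17.8 and 15.6 CPM in HFD. Hspa8 was at 2211, 2914, 3133 and 3290 CPM in ND and at 1271, 1530, 1659 and 1739 CPM in HFD, so it was higher at higher mitochondrial share within each library. The range above the limit held 910 ND and 4247 HFD endothelial barcodes. In macrophages Hspa1a depended more on the range, at 140, 287, 382 and 380 CPM in ND and at 7.79, 98.5, 244 and 296 CPM in HFD, the first HFD value resting on 3 UMIs in 23 cells. At least 2-fold lower in HFD were 4, 4, 0 and 1 of the 10 genes over the macrophage ranges, against 21.4%, 12.3%, 6.53% and 6.6% of all genes. Macrophage type and mitochondrial share went together in HFD. Foam cells had a median share of 15.8% and 29.1 CPM of Hspa1a, and resident cells 22.3% and 215 CPM. The parts of type and quality in these ranges were not tested.

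**Figure D5:**
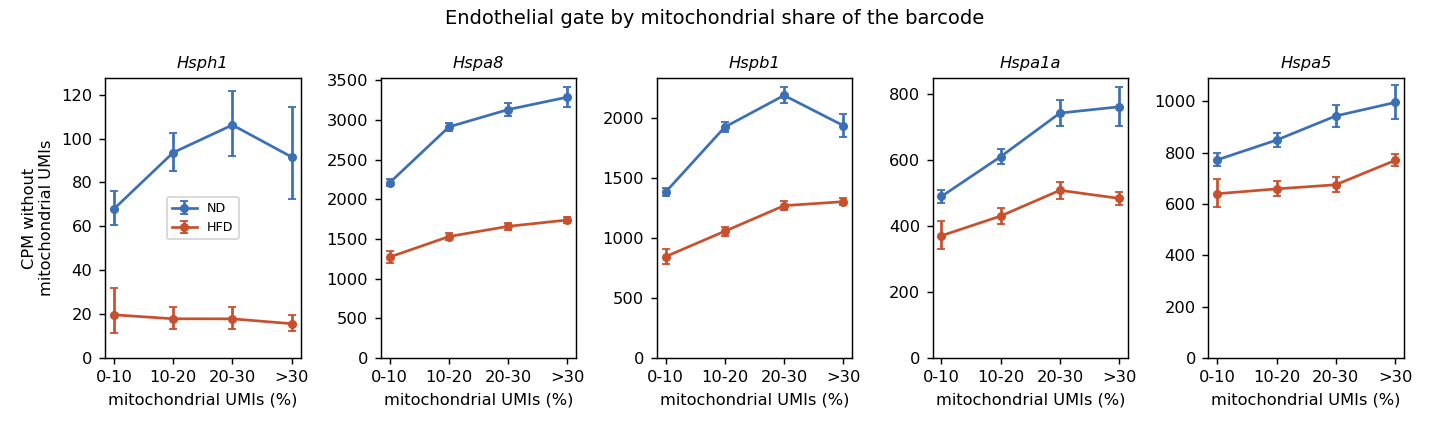
CPM over non-mitochondrial UMIs of 5 genes in endothelial barcodes by mitochondrial share, ND in blue and HFD in orange, with 95% counting intervals. The HFD line lies below the ND line for each of the 5 genes in each range, and Hsph1 stays between 15.6 and 19.6 CPM in HFD.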

How the data were processed

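Aortic arch cells were measured in 1 10x Genomics library per diet. The authors made UMI counts per gene and barcode with Cell Ranger (3.0.1 in the file header) and deposited these raw counts, without normalization, including barcodes that their filter removed. The submitters' processing notes name mm10, Seurat 3.2.0 and R 4.0.0. The joined table of both libraries was not used. The 10 genes and all lists were chosen with earlier results of these data known.

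Barcodes with 200 genes and 200 UMIs or more and a mitochondrial share up to 30% were kept and gated by 8 markers per class. Doublets were not called, and leaving out the 6% of cells with the most UMIs was an alternative. Levels are sums of UMIs over a gate of 1 library, per all UMIs of that gate. Intervals at 95% were Poisson for a level, conditional binomial for a ratio and Clopper-Pearson for a share. A gene with at least 10 UMIs over both libraries and a ratio of at least 2 was called. The 10 genes were all named, of the other lists those called in the endothelial gate with at least 50 UMIs, and the 5 genes most like Hspa1a, Hspa5 and Hspd1. Further list genes were named for context after their values were seen. The ratio code was tested on simulated counts. Gene positions are from GENCODE M21 (GRCm38). Python 3.11.15, numpy 2.4.6, scipy 1.17.1, pandas 2.3.3 and matplotlib 3.10.9 were used.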

Additional observations from a re-analysis of the deposited data

Results flagged for a closer look

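The genes below had HFD over ND ratios on opposite sides of equality in different cells, with intervals that did not reach it, and none of these differences was tested. In luminal against capillary endothelial cells the log2 ratios were 0.27 and -0.57 for Hspa1a, 0.47 and -0.90 for Hspa1b, and 0.43 and -0.88 for Hspb1. Of 10647 genes with enough UMIs in both sub-gates, 413 (3.88%) had intervals on opposite sides. Hsp90aa1 was lower in HFD in endothelial cells (-0.22), fibroblasts (-0.23) and macrophages (-0.51) and higher in T cells (0.61), the last on 34 HFD cells. The T cell ratio of Hsp90aa1 was -0.33 without a mitochondrial limit (415 HFD cells, per all UMIs, mitochondrial ones included). Its fibroblast ratio was 0.05 with at most 20% mitochondrial UMIs. Hspe1 was lower in HFD endothelial cells (-0.56) and higher in HFD macrophages (0.43), where 4.29% of 10585 genes had opposite intervals between these gates. Its endothelial ratio was 0.21 with at most 10% mitochondrial UMIs (55 HFD cells), and its macrophage ratio was -0.02 in the resident sub-gate.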

How the results depend on the processing

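Hsph1 was at least 2-fold lower in HFD endothelial cells under all 13 alternatives, with log2 ratios from -2.70 to -1.80, and 9 of the 10 genes kept a lower HFD value there under each alternative. The exception was Hspe1, at 0.21 with at most 10% mitochondrial UMIs. Of 280 alternative counts, 236 stayed within 1.5 times the first value and 44 did not, and the causes were not tested. The alternatives without a mitochondrial limit are per all UMIs, so the added barcodes also bring more mitochondrial UMIs into the total. With 1 library per diet, no library could be left out. No paired analysis was possible because each diet has 1 library. Fibroblasts at 10%, and T cells at 10%, 20% and after thinned gating, had too few HFD cells.

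Genes of the 10 called lower in HFD went from 1 to 4 in endothelial cells without a mitochondrial limit and to 2 in the capillary sub-gate alone (chosen after seeing the data), and from 1 to 2 in fibroblasts without the 6% of cells with the most UMIs or at 2000 to 8000 UMIs. In macrophages they went from 3 to 1 without a mitochondrial limit and in the resident sub-gate alone, and to 0 without the 6%, at 2000 to 8000 UMIs, under median-of-ratios scaling and with per-cell means. Genes lower in ND endothelial than T cells went from 0 to 1 at 20%, with 4 markers, without the 6%, at 2000 to 8000 UMIs, without mitochondrial, haemoglobin and ribosomal UMIs, and with per-cell means, and those higher in endothelial cells than fibroblasts from 5 to 3 at 10%.

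The other chaperone genes called lower went from 4 to 1 (10%) and 10 (no limit) in endothelial cells. In macrophages they went from 4 to 10 (10%), 1 (2000 to 8000 UMIs) and 2 (median of ratios). In fibroblasts they went from 5 to 3 (20%, without the 6%) and 2 (reduced total, median of ratios), and in T cells from 5 to 9 (2000 to 8000 UMIs) and 11 (median of ratios). Those called higher went from 0 to 1 in endothelial cells and macrophages at 10% and in fibroblasts at 20%. In T cells they went from 2 to 1 (no limit, lead of 1, without the 6%, median of ratios), 4 (haemoglobin cells out, per-cell means) and 5 (2000 to 8000 UMIs, no minimum of UMIs).

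Between barcodes above 30% and cells of 10% to 20% mitochondrial UMIs, counts over all UMIs in place of non-mitochondrial ones raised the genes called lower to 1 (endothelial, HFD), 8 and 5 (fibroblast, HFD and ND) and 3 (macrophage, HFD), and left 1 called higher (macrophage, HFD). The T cell log2 ratio of Hspa1b turned to 0.70 without a mitochondrial limit and to 0.46 at 2000 to 8000 UMIs.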
